A study of Mus musculus with 14 samples.

Results

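Retinoic acid, the active form of vitamin A, is made, broken down, sensed and carried in the testis by products of a small set of genes, and 10 of them were followed here: Rdh10, Aldh1a1, Aldh1a2 and Aldh1a3 for synthesis, Cyp26a1 and Cyp26b1 for breakdown, Rara, Rarb and Rarg for the receptors, and Crabp1 for a binding protein. Every non-control probe whose gene name on the array equalled 1 of these names was taken, whatever its values, which gave 14 probes in 23 spots, of 41174 probes for 27670 genes in all. The samples were total RNA of whole testis from C57BL/6 mice, each on 1 single-colour Agilent mouse genome array. WT and Glis3KO2 testes were compared at 1 week of age (4 WT, 4 Glis3KO2) and at 4 weeks of age (3 WT, 3 Glis3KO2). Glis3 encodes a Krüppel-like zinc finger transcription factor, and the labels name its allele only as Glis3KO2, with no word on the deleted part or on the breeding. All pups were untreated and stayed with their own mothers. The series' design text gives the older age as 3 weeks, and the sample labels, which were followed, give 4 weeks. Nothing in the labels says whether samples of a group are separate animals or pools, so the p-values measure the spread between these samples, which may be partly technical.

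Retinol dehydrogenases such as RDH10 oxidise retinol to retinal, and the retinaldehyde dehydrogenases ALDH1A1, ALDH1A2 and ALDH1A3 oxidise retinal to retinoic acid, which enzymes of the CYP26 family then inactivate. Inside the nucleus retinoic acid binds the receptors RARA, RARB and RARG, which pair with RXR receptors and sit on DNA at short direct repeats. In the testis the signal is known for driving spermatogonia to differentiate and germ cells to enter meiosis, and Sertoli cells, the nurse cells of the tubules, are a known source of it for the first germ cells, with spermatocytes a later one.

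Rarb and Cyp26a1 are textbook genes whose own promoters respond to retinoic acid, and their promoters are shown because they alone among the members' promoters in the RefSeq table held the letters of a classical response element. The search was for direct repeats of AGTTCA or AGGTCA or GGTTCA or GGGTCA with 5 bases between the repeats (DR5), on both strands, from 250 bases before to 50 bases after the start of each gene. Of 32851 promoters in the table, 32 held such a repeat (0.0974%). The table (GRCm38.p6) held 13 promoters of 8 members and none for Aldh1a3 and Rdh10. Repeats of the same letters with 2 bases between them (0.268% of all promoters) or 1 base (0.222%) were in no member's promoter. The 250 bases before the start of Rarb lie on the minus strand at chr14:16575477-16575726, those of Cyp26a1 on the plus strand at chr19:37697558-37697807, and capitals mark the match.
Rarb: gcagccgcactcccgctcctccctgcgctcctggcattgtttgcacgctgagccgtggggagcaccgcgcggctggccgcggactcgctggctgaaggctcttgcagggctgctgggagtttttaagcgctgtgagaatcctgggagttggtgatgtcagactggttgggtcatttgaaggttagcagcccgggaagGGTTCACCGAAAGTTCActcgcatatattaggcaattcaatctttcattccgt
Cyp26a1: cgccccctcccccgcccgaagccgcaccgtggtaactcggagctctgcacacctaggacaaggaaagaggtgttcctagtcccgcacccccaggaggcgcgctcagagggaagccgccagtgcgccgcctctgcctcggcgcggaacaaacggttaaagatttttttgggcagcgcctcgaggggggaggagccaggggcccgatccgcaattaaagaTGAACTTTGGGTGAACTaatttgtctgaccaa
The Rarb match, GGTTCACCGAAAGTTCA, runs on the gene's own strand from 53 to 37 bases before the start. The Cyp26a1 match reads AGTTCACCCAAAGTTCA on the opposite strand, from 32 to 16 bases before the start. A match is a description of letters and was not tested as a binding site.

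Rdh10 and Aldh1a3 each had 2 probes whose results differed, so the ends of those 60-base probes are shown as well (the last 30 bases, positions of the whole probe in the mm7 build of the array annotation). The 2 Rdh10 probes lie 524 bases apart on the plus strand, at chr1:16320067-16320126 (upstream) and chr1:16320651-16320710 (downstream). The Aldh1a3 probes lie 18062 bases apart on the minus strand, at chr7:62266988-62267047 (upstream) and chr7:62248866-62248925 (downstream). Capitals mark AATAAA, the letters of the common polyadenylation signal, which only the downstream Aldh1a3 probe held among all the members' probes.
Rdh10 upstream: tgtacggagtgccgtttctatcaggatagg
Rdh10 downstream: gtttgtacattttctacctgtgaatcttgc
Aldh1a3 upstream: cgtaaactattagaaaaattttccagttcc
Aldh1a3 downstream: gttcagcaatgaaaaAATAAAgttggacac
Rarg (252 bases apart) and Rarb (116721 bases apart) also had 2 probes each, and the other 6 genes had 1. A gene is given below by its brightest probe over the 14 arrays, and the other probe is named where it is used.

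Values are log2 signals: the background-subtracted intensity of a probe, on the log2 scale, with the array's own 75th percentile (over non-control probes) subtracted. A value of 0 is thus that percentile, a difference of 1 is 2-fold, and levels of different probes are not compared. Glis3 itself read -4.99, -4.72, -5.05 and -4.71 in the 1-week WT arrays and -7.30, -9.25, -7.83 and -7.77 in the 1-week Glis3KO2 arrays. It was not well above background on any of these 4 Glis3KO2 arrays, a level at least 4.25-fold lower with the background level standing in. The limma adjusted p of 0.00534 belongs to the measured difference of -3.17 (log2). At 4 weeks the Glis3 probe was not well above background on any array of either genotype and checks no label, and whether it lies in the deleted part is not given. Spots well above background made up 74.3% to 86.6% of an array's non-control spots. Slide 1 and slide 2 each held both genotypes at 1 week, slide 3 held only 1-week Glis3KO2 replicate 4, scanned on another day, and slides 4 and 5 held the 4-week arrays, so age cannot be told apart from slide and scan day.

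The labelled tissue was checked against marker lists of testis cell types. All 11 Sertoli, 8 Leydig, 6 peritubular, 7 macrophage and 5 general germ cell markers were well above background on all 14 arrays. Summed over the list, undifferentiated spermatogonia markers ran from 1.73 to 1.90 (log2) in 1-week WT and 0.16 to 1.13 in 1-week Glis3KO2, with 6 of 8 tested lower and 0 higher. Sertoli markers ran from 7.51 to 7.64 in 1-week WT and 7.93 to 8.32 in 1-week Glis3KO2 (4 of 11 higher, 0 lower), and from 6.27 to 6.46 in 4-week WT and 8.03 to 8.42 in 4-week Glis3KO2 (10 of 11 higher, 0 lower). Spermatid markers ran from 9.19 to 9.74 in 4-week WT and 5.93 to 7.31 in 4-week Glis3KO2, and spermatocyte markers from 8.10 to 8.29 and 6.93 to 7.72, with 8 of 8 lower in each list. At 1 week 3 of 8 spermatocyte markers were lower and 1 higher. Of differentiating spermatogonia markers, 2 of 5 were lower and 0 higher at 1 week, and 1 higher and 1 lower at 4 weeks. Of undifferentiated spermatogonia markers, 2 of 7 tested were higher and 2 lower at 4 weeks. Macrophage markers ran from 3.15 to 3.84 in 1-week WT and 4.03 to 4.71 in 1-week Glis3KO2 (3 of 7 higher, 0 lower), and from 3.45 to 3.87 and 4.55 to 5.10 at 4 weeks (6 of 7 higher, 0 lower). Leydig markers ran from 4.86 to 5.07 in 1-week WT and 5.40 to 5.69 in 1-week Glis3KO2 (4 of 8 higher, 0 lower), and at 4 weeks 2 of 8 were higher and 3 lower (5.06 to 5.41 in WT and 3.41 to 5.03 in Glis3KO2). Peritubular markers separated the genotypes at 4 weeks (4.53 to 4.71 and 5.33 to 6.29, 5 of 6 higher), as did endothelial markers (0.77 to 1.21 and 1.27 to 1.56, 3 of 6 higher). General germ cell markers were lower in Glis3KO2 at 1 week (5.03 or more in WT and 4.79 or less in Glis3KO2, 2 of 5 lower) and at 4 weeks (7.29 to 7.32 and 5.28 to 6.39, 3 of 5 lower). Over all genes, 3.91% were higher and 6.16% lower at 1 week, and 35.3% higher and 34% lower at 4 weeks. The groups did not overlap for 27.3% of all single genes at 1 week and 77.1% at 4 weeks. In 1-week Glis3KO2 replicates 1 and 4, epididymis and efferent duct markers summed to 1.05 and 1.49, against -2.54 to -1.83 in the other 1-week arrays, and 2 of those 10 markers were above background on no array. Without these 2 arrays the 1-week counts by limma were 2 of 8 undifferentiated spermatogonia markers lower, 1 of 7 macrophage markers higher, and 0 of 11 Sertoli, 0 of 8 Leydig and 0 of 5 general germ cell markers called (5, 4 and 3 at an unadjusted p under 0.05). In the same setting 2 of 8 spermatocyte markers were lower and 0 higher, and 0 of 5 differentiating spermatogonia markers were called. These shifts run with the genotype and age differences below, and their part in those differences was not tested. In whole testis RNA, fewer cells of a type and less RNA per cell cannot be told apart.

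At 1 week the knockout testes differed from WT in 3 of the 10 genes: the breakdown enzyme Cyp26a1 was 2.80-fold lower, the receptor Rarg 1.58-fold lower and the synthesis enzyme Aldh1a3 1.58-fold higher. The Rarg call was lost in 15 of 24 alternatives of processing or omitted arrays and the Aldh1a3 call in 12. Neither gene passed the test at its other probe. At 4 weeks 7 of the 10 differed: Aldh1a1, Aldh1a3, Cyp26b1, Rara and Rarb were higher in Glis3KO2 by 2.06-fold to 4.08-fold, and Aldh1a2 was lower. The seventh, Rdh10, was lower at its brightest probe, by which it is counted, and higher at its other probe. All 10 genes were tested in every comparison. The background was 10.1% of the 22468 genes called at 1 week (3.91% higher, 6.16% lower) and 69.3% of the 21142 genes called at 4 weeks (35.3% higher, 34% lower), so the 4-week share of members called lies near that of all genes. The median difference of the members was 0.15 at 1 week, against -0.063 over all genes, and 0.70 at 4 weeks, against 0.027. The groups did not overlap for 5 members at 1 week, against 27.3% of all genes, and for 7 at 4 weeks, against 77.1%.

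**Figure D1:**
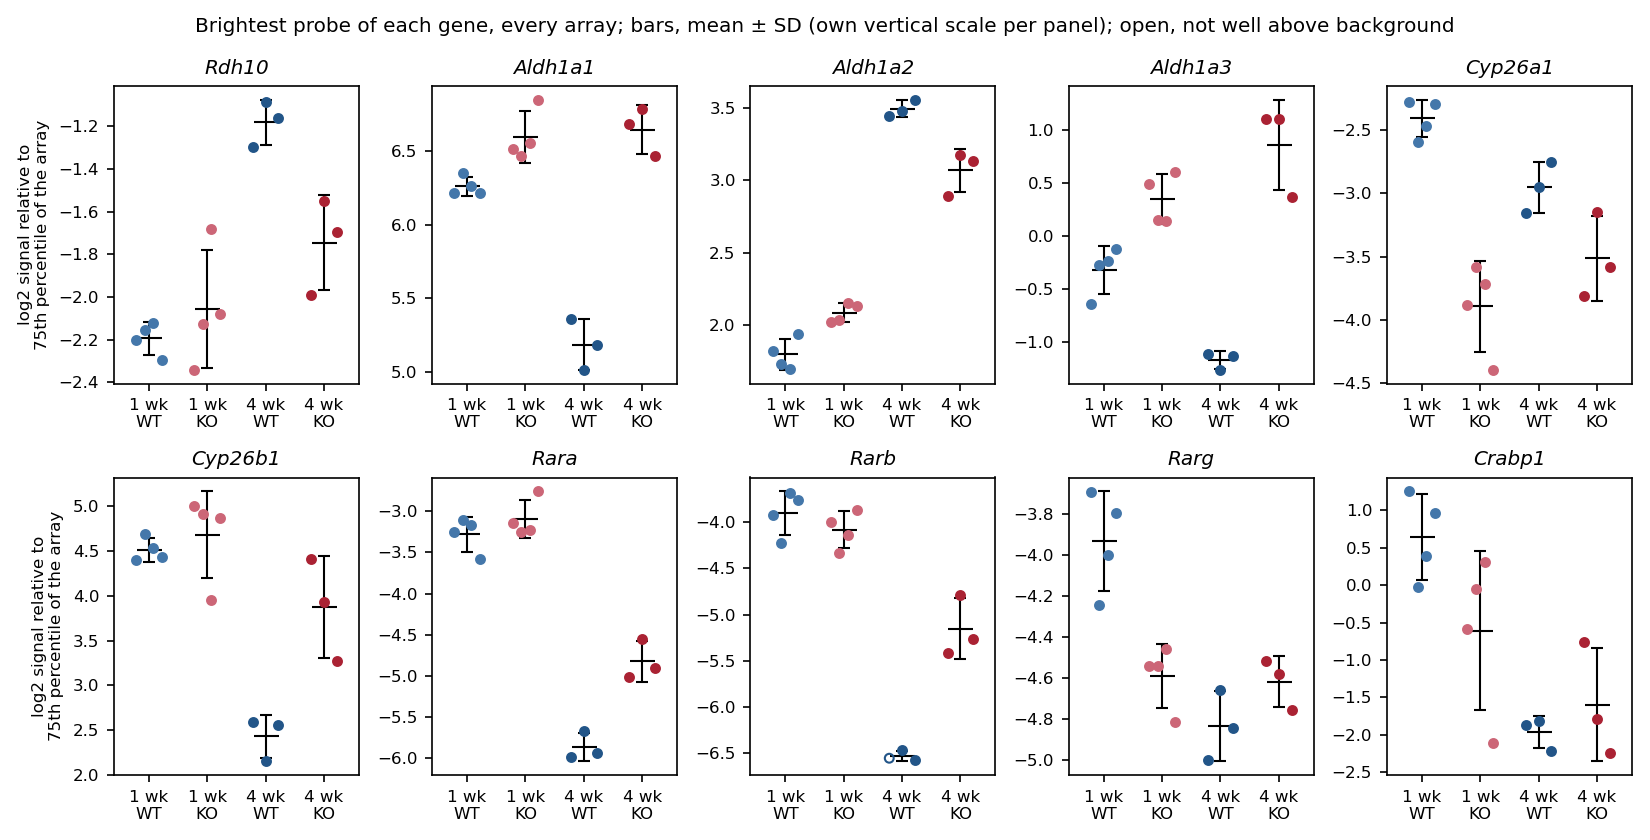
Log2 signal relative to the 75th percentile of the array (vertical axis, own scale per panel) for the brightest probe of each gene in each of 14 arrays, by group (1-week and 4-week WT in blue, Glis3KO2, marked KO, in red), with bars for mean ± SD and open points for arrays not well above background. Cyp26a1 separates the genotypes at 1 week, and Aldh1a1, Aldh1a3, Cyp26b1, Rara and Rarb stand higher in Glis3KO2 than in WT at 4 weeks.

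Among the synthesis genes, Rdh10, whose product makes retinal from retinol, gave opposite 4-week results at its 2 probes. Its upstream probe read -1.30, -1.09 and -1.16 in 4-week WT and -1.99, -1.55 and -1.69 in 4-week Glis3KO2. Every Glis3KO2 array lay below every WT array, a fall of 1.48-fold (-0.56 on the log2 scale, SE 0.17, 95% interval -0.96 to -0.16, limma adjusted p = 0.0206). The downstream probe, 524 bases further, read -3.83, -3.91 and -3.89 in 4-week WT and -1.59, -1.30 and -1.96 in 4-week Glis3KO2. Here every Glis3KO2 array lay above every WT array, a rise of 4.79-fold (2.26 on the log2 scale, SE 0.19, 95% interval 1.80 to 2.72, limma adjusted p = 0.000508). At 1 week neither probe passed the test: the upstream probe stood at -2.19 ± 0.077 (SD, n = 4) in WT and -2.06 ± 0.28 (SD, n = 4) in Glis3KO2 (adjusted p = 0.524 by limma), and the downstream probe at -1.45 ± 0.15 (SD, n = 4) and -1.48 ± 0.18 (SD, n = 4) (adjusted p = 0.861).

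Between 1 and 4 weeks in WT the Rdh10 probes also moved apart. The upstream probe rose by 1.01 (SE 0.090, limma adjusted p = 3.00e-05) and the downstream probe fell by 2.43 (SE 0.10, adjusted p = 7.41e-07) on the log2 scale. By limma, in Glis3KO2 neither changed past the test between the ages (0.31, adjusted p = 0.268, and -0.14, adjusted p = 0.633). The 4-week WT arrays thus stand apart from the other 3 groups at both probes, upward at the upstream one and downward at the downstream one. With the 2 probes averaged, the 4-week genotype difference of Rdh10 was 0.85 higher in place of lower (limma adjusted p = 0.00324) and the WT age difference -0.71 in place of 1.01. The upstream call was lost without 4-week WT replicate 2 (-0.52, limma adjusted p = 0.0788), without WT replicate 3 (-0.55, 0.0784), without Glis3KO2 replicate 1 (-0.44, 0.0510) and within slide 4 (-0.54, 0.0569). The downstream call held under all 18 alternatives with a test.

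**Figure D2:**
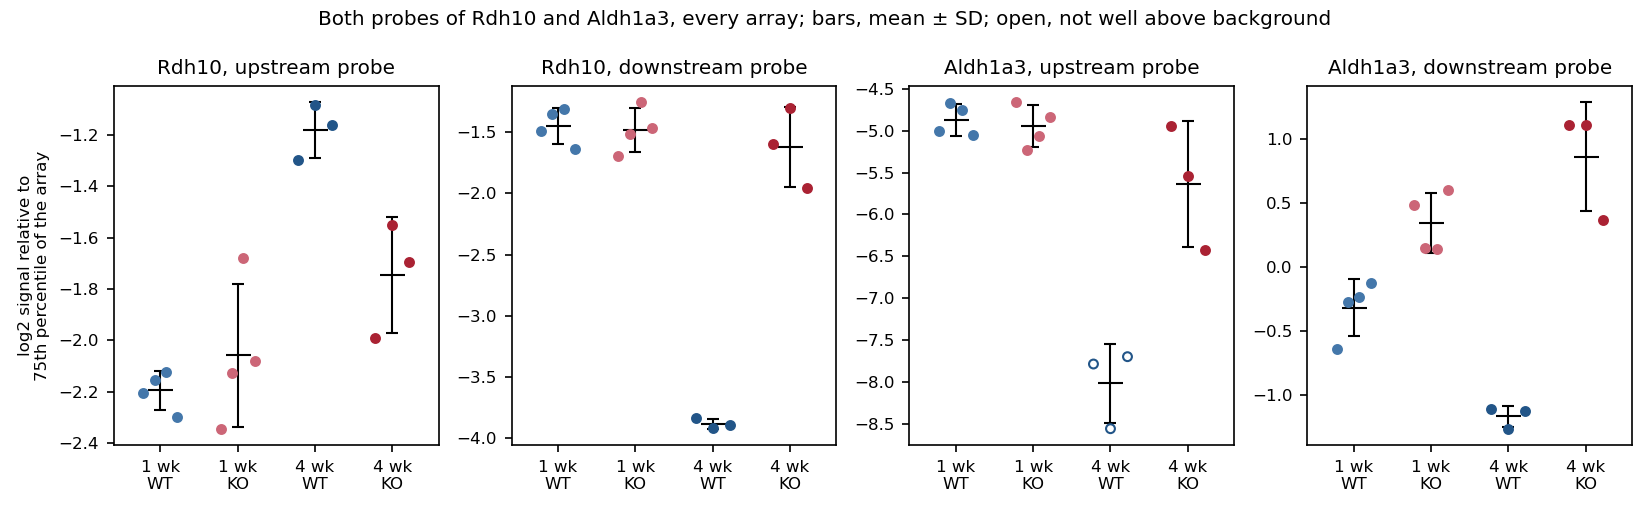
Log2 signal relative to the 75th percentile of the array (vertical axis, own scale per panel) at both probes of Rdh10 and Aldh1a3, in each array of the 4 groups (WT in blue, Glis3KO2, marked KO, in red), with bars for mean ± SD and open points for arrays not well above background. The 3 4-week WT arrays are the highest at the upstream Rdh10 probe and the lowest at the downstream Rdh10 probe and at both Aldh1a3 probes.

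Aldh1a1, the retinaldehyde dehydrogenase known from Sertoli cells, read 5.36, 5.01 and 5.18 in 4-week WT and 6.69, 6.79 and 6.47 in 4-week Glis3KO2. No array of one genotype reached the other, and the gene was 2.75-fold higher in Glis3KO2 (1.46 on the log2 scale, SE 0.17, 95% interval 1.07 to 1.85, limma adjusted p = 0.000686). After quantile normalization the difference was 2.13. At 1 week it read 6.22, 6.35, 6.26 and 6.21 in WT and 6.52, 6.46, 6.55 and 6.85 in Glis3KO2. The groups did not overlap there either, and the difference of 0.34 (95% interval 0.058 to 0.61) did not pass the test (limma adjusted p = 0.0919). In order, 4-week WT was lowest, then 1-week WT, and the Glis3KO2 groups of both ages were highest and differed from each other by 0.050 (95% interval -0.39 to 0.49, adjusted p = 0.845 by limma).

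Aldh1a2, known from spermatocytes, went the other way at 4 weeks. It read 3.44, 3.48 and 3.56 in WT and 2.90, 3.17 and 3.13 in Glis3KO2, and every Glis3KO2 array was the lower. The fall was 1.34-fold (-0.42 on the log2 scale, SE 0.15, 95% interval -0.77 to -0.076, limma adjusted p = 0.0357), the smallest of the 7 called. At 1 week the values were 1.83, 1.73, 1.70 and 1.94 in WT and 2.03, 2.04, 2.15 and 2.13 in Glis3KO2. These groups did not overlap, with Glis3KO2 above WT by 0.29 (95% interval 0.045 to 0.53), a difference that did not pass the test (limma adjusted p = 0.0961). The 4-week call was lost in 7 of 20 alternatives with a test: without WT replicate 1 (-0.45, limma adjusted p = 0.0995), WT replicate 2 (-0.43, 0.0967), WT replicate 3 (-0.39, 0.142) or Glis3KO2 replicate 1 (-0.34, 0.0870), under quantile normalization (-0.13, 0.416), with no filter on dim probes (-0.42, 0.0586) and with the replicate block (-0.42, 0.0937). Spermatocyte markers, 8 of 8 lower at 4 weeks, moved the same way, and their part was not tested.

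Aldh1a3, the third retinaldehyde dehydrogenase, was higher in Glis3KO2 at both ages by its downstream probe. At 1 week it read -0.64, -0.27, -0.24 and -0.12 in WT and 0.49, 0.15, 0.14 and 0.60 in Glis3KO2. All Glis3KO2 arrays lay above all WT arrays, by 1.58-fold (0.66 on the log2 scale, SE 0.17, 95% interval 0.28 to 1.04, limma adjusted p = 0.0454). At 4 weeks it read -1.11, -1.26 and -1.13 in WT and 1.11, 1.11 and 0.37 in Glis3KO2. Glis3KO2 replicate 3 was the lowest of its group and still above every WT array, and the group was 4.08-fold higher (2.03 on the log2 scale, SE 0.23, 95% interval 1.48 to 2.58, limma adjusted p = 0.000693).

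The upstream Aldh1a3 probe, 18062 bases away, did not show the 1-week difference: it stood at -4.87 ± 0.19 (SD, n = 4) in WT and -4.95 ± 0.25 (SD, n = 4) in Glis3KO2 (-0.078, 95% interval -0.45 to 0.29, limma adjusted p = 0.736). At 4 weeks it read -7.79, -8.56 and -7.70 in WT, where none of 3 arrays was well above background, and -4.94, -5.54 and -6.43 in Glis3KO2, where all 3 were. That is at least 1.99-fold higher in Glis3KO2, with the background level standing in for WT. The limma adjusted p of 0.00221 belongs to the measured difference of 2.38 (log2) and not to this bound. At 4 weeks the probe passed the filter only through the Glis3KO2 arrays. After normexp background correction the difference was 0.71 (log2), below that bound in size, and not called (limma adjusted p = 0.0632). The 1-week call of the downstream probe was lost in 12 of 24 alternatives, among them slide as a block (0.59, limma adjusted p = 0.148) and the omission of 1 array (WT replicate 1, 0.55, 0.115; WT replicate 2, 0.68, 0.0880; WT replicate 3, 0.69, 0.0960; Glis3KO2 replicate 1, 0.62, 0.0773; Glis3KO2 replicate 4, 0.58, 0.101). Without both Glis3KO2 replicates 1 and 4, the arrays with epididymal markers, it was 0.46 (limma adjusted p = 0.227).

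Cyp26a1 passed the test at 1 week and Cyp26b1 at 4 weeks. Cyp26a1, which inactivates retinoic acid and is itself switched on by it, read -2.28, -2.59, -2.47 and -2.29 in 1-week WT and -3.88, -3.58, -3.71 and -4.39 in 1-week Glis3KO2. The highest Glis3KO2 array lay below the lowest WT array by more than the spread of either group, and the gene was 2.80-fold lower (-1.48 on the log2 scale, SE 0.19, 95% interval -1.91 to -1.05, limma adjusted p = 0.00666). This was the largest 1-week difference among the 10 genes. At 4 weeks Cyp26a1 read -3.16, -2.95 and -2.76 in WT and -3.81, -3.15 and -3.58 in Glis3KO2. Glis3KO2 replicate 2 fell inside the WT range, and the difference of -0.56 (95% interval -1.07 to -0.048) did not pass the test (limma adjusted p = 0.0518). From lowest to highest the order was 1-week Glis3KO2, 4-week Glis3KO2, 4-week WT and 1-week WT, and of these neighbours only the WT groups differed past the test (-0.54, limma adjusted p = 0.00619).

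The 1-week difference of Cyp26a1 was -1.31 with slide as a block (limma adjusted p = 0.0176), -1.42 within slide 1 (0.0804) and -1.14 within slide 2 (0.764), the last with 2 WT arrays and 1 Glis3KO2 array. Without Glis3KO2 replicates 1 and 4 it was -1.24 (limma adjusted p = 0.0434). The 4-week difference passed the test in 5 of 20 alternatives, all with the same sign: without Glis3KO2 replicate 2 (-0.74, limma adjusted p = 0.0214), after median scaling (-0.64, 0.0465) or quantile normalization (-0.66, 0.0458), with only probes well above background on every array (-0.56, 0.0474) and in 1 fit of all 14 arrays (-0.56, 0.0380).

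Cyp26b1, the enzyme known for keeping retinoic acid away from germ cells of the fetal testis, read 4.40, 4.69, 4.53 and 4.43 in 1-week WT and 5.004, 4.91, 3.96 and 4.87 in 1-week Glis3KO2. Glis3KO2 replicate 3 was the lowest of all 8 and the other 3 lay above every WT array, so the groups overlapped (0.17, 95% interval -0.37 to 0.71, limma adjusted p = 0.601). At 4 weeks it read 2.58, 2.15 and 2.55 in WT and 4.41, 3.94 and 3.27 in Glis3KO2. Each Glis3KO2 array lay above each WT array, by 2.73-fold on average (1.45 on the log2 scale, SE 0.30, 95% interval 0.73 to 2.17, limma adjusted p = 0.00467). The 4-week difference was 1.61 within slide 4 and 1.13 within slide 5, where 1 array of each genotype allows no test. In WT the gene fell 4.24-fold between the ages (limma adjusted p = 6.22e-06). In Glis3KO2 the age difference of -0.81 on the log2 scale did not pass the test (limma adjusted p = 0.0785). This Glis3KO2 difference passed in 6 of 20 alternatives. Among them were the omission of 1-week Glis3KO2 replicate 3 (-1.05, limma adjusted p = 0.0195) and of 4-week Glis3KO2 replicate 1 (-1.08, 0.0447).

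Of the 3 receptors, Rarg was called at 1 week only, and Rara and Rarb at 4 weeks only. Over all genes 10.1% were called at 1 week and 69.3% at 4 weeks. Rarg, the receptor known from spermatogonia, read -3.69, -4.24, -3.997 and -3.79 in 1-week WT and -4.54, -4.54, -4.46 and -4.81 in 1-week Glis3KO2. All Glis3KO2 arrays lay below all WT arrays, by 1.58-fold (-0.66 on the log2 scale, SE 0.15, 95% interval -1.01 to -0.31, limma adjusted p = 0.0398). Its other probe, 252 bases away, read -3.99, -4.87, -4.43 and -4.13 in WT and -5.18, -4.87, -4.87 and -5.91 in Glis3KO2. There WT replicate 2 lay level with the highest Glis3KO2 arrays, and the difference of -0.86 (95% interval -1.50 to -0.21) did not pass the test (limma adjusted p = 0.0752). At 4 weeks neither probe passed the test (0.22, 95% interval -0.16 to 0.59, adjusted p = 0.258 by limma, and 0.19, 95% interval -0.18 to 0.55, adjusted p = 0.311), and the brightest probe stood at -4.83 ± 0.17 (SD, n = 3) in WT and -4.62 ± 0.12 (SD, n = 3) in Glis3KO2. Of the 4 groups, 1-week WT was highest, and the other 3 did not differ past the test between neighbours.

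The 1-week Rarg call was lost in 15 of 24 alternatives, its direction in none. It was -0.28 after normexp background correction (limma adjusted p = 0.253), -0.30 after quantile normalization (0.226), -0.40 after median scaling (0.114) and -0.60 with slide as a block (0.129). Leaving out WT replicate 1 (-0.58, limma adjusted p = 0.109), WT replicate 3 (-0.68, 0.0889), Glis3KO2 replicate 1 (-0.67, 0.0652), Glis3KO2 replicate 2 (-0.67, 0.0519) or Glis3KO2 replicate 4 (-0.58, 0.0888) also ended it. Markers of undifferentiated spermatogonia (6 of 8 tested) and of differentiating spermatogonia (2 of 5) fell in the same 1-week comparison, and their part in the Rarg difference was not tested.

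Rara, the receptor known from Sertoli cells and some germ cells, read -5.99, -5.67 and -5.94 in 4-week WT and -5.02, -4.55 and -4.91 in 4-week Glis3KO2. The genotypes did not overlap, and the gene was 2.06-fold higher in Glis3KO2 (1.04 on the log2 scale, SE 0.18, 95% interval 0.60 to 1.48, limma adjusted p = 0.00242). At 1 week it stood at -3.28 ± 0.21 (SD, n = 4) in WT and -3.10 ± 0.23 (SD, n = 4) in Glis3KO2, overlapping ranges with a difference of 0.18 (95% interval -0.19 to 0.56, limma adjusted p = 0.419). Both genotypes fell with age, WT by 2.59 (limma adjusted p = 2.83e-06) and Glis3KO2 by 1.73 (adjusted p = 0.000234). After normexp background correction the age differences were -1.51 in WT and -1.06 in Glis3KO2, both still called.

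Rarb, whose promoter with its DR5 repeat is printed above, was measured by 10 spots of its brightest probe on each array. It read -6.55, -6.46 and -6.57 in 4-week WT, where 2 of 3 arrays were well above background, and -5.42, -4.78 and -5.26 in 4-week Glis3KO2. Every Glis3KO2 array was higher than every WT array, by 2.59-fold (1.37 on the log2 scale, SE 0.20, 95% interval 0.91 to 1.84, limma adjusted p = 0.00120). At 1 week it read -3.93, -4.23, -3.69 and -3.77 in WT and -4.000, -4.33, -4.14 and -3.86 in Glis3KO2. The ranges overlapped, and the difference of -0.18 (95% interval -0.55 to 0.19) did not pass the test (limma adjusted p = 0.420). The order ran from 4-week WT through 4-week Glis3KO2 to the 1-week groups, with each step past the test except that between the 1-week genotypes. After normexp background correction the 4-week difference was 0.67 for Rarb and 0.64 for Rara, still called. The second Rarb probe, 116721 bases away, was well above background on 3 of 4 1-week WT arrays and on no array of the other groups, gave no call at 1 week (-0.39, limma adjusted p = 0.298) and was too dim to test at 4 weeks.

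Rarb and Cyp26a1, the members whose printed promoters hold a DR5 repeat, were called at different ages. Cyp26a1 was lower in Glis3KO2 at 1 week (-1.48) and Rarb was higher at 4 weeks (1.37), and neither passed the test at the other age, although Cyp26a1 at 4 weeks (-0.56) did in 5 of 20 alternatives.

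Crabp1, which encodes a protein that holds retinoic acid in the cytoplasm, passed the test in neither genotype comparison. It read 1.26, -0.029, 0.39 and 0.96 in 1-week WT and -0.59, -0.054, 0.31 and -2.11 in 1-week Glis3KO2. The WT arrays were already spread widely, 1 of the 4 Glis3KO2 arrays lay within their range, and Glis3KO2 replicate 4 was far the lowest (-1.25, 95% interval -2.45 to -0.053, limma adjusted p = 0.127). At 4 weeks it read -1.87, -1.81 and -2.21 in WT and -0.77, -1.79 and -2.24 in Glis3KO2, again overlapping (0.37, 95% interval -0.51 to 1.25, adjusted p = 0.406 by limma). In WT it fell by 2.61 on the log2 scale between the ages (limma adjusted p = 0.000151).

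**Figure D3:**
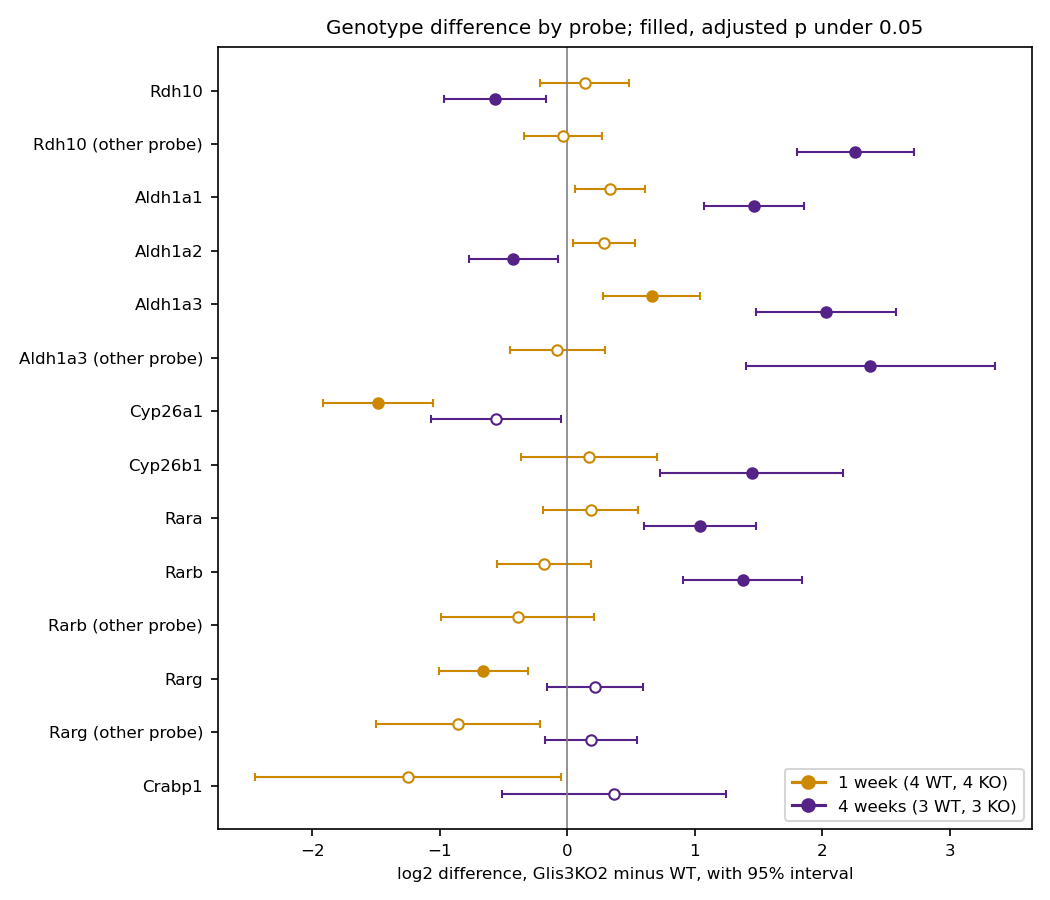
Log2 difference, Glis3KO2 minus WT (horizontal axis), with its 95% interval for every probe of the 10 genes at 1 week (4 arrays a genotype) and 4 weeks (3 arrays a genotype); filled points have a limma adjusted p under 0.05. At 1 week only Cyp26a1, Rarg and Aldh1a3 at their brightest probes are filled, and at 4 weeks the 2 Rdh10 probes lie on opposite sides of 0.

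Between 1 and 4 weeks all 10 genes changed in WT and 3 of them in Glis3KO2. In WT, 8 fell and 2 rose, Aldh1a2 by 1.69 and Rdh10 (upstream probe) by 1.01, where 81% of 23451 genes were called (31.2% higher, 49.7% lower). The falls ran from 0.54 for Cyp26a1 to 2.63 for Rarb on the log2 scale. The Rarb age difference in WT, where the 4-week level lies near background, was -1.17 after normexp background correction and -1.37 with its probes averaged, both still called. In Glis3KO2, Rara fell by 1.73, Rarb fell by 1.07 and Aldh1a2 rose by 0.98, where 52.4% of 21530 genes were called (23.6% higher, 28.8% lower). The members' median was -0.99 in WT, against -0.51 over all genes, and 0.011 in Glis3KO2, against -0.14. The Rarb call in Glis3KO2 was lost after normexp background correction (-0.49, limma adjusted p = 0.135) and without 1-week Glis3KO2 replicates 1 and 4 (-0.92, 0.0584), and the Cyp26a1 call in WT was lost after median scaling (-0.41, 0.0533). In Glis3KO2, Cyp26b1 passed the test in 6 of 20 alternatives, Crabp1 in 3 of 20 and Aldh1a1 in 1 of 20. Among these, Crabp1 was -1.49 without 1-week replicate 4 (limma adjusted p = 0.0191). Aldh1a3 passed in 1 of 20, without 4-week replicate 3 (0.76, limma adjusted p = 0.0246). In WT, Sertoli markers also fell between the ages (10 of 11) and spermatocyte and spermatid markers rose (8 of 8 in each list), and their part was not tested.

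The genotype difference itself changed between the ages for 9 of the 10 genes, where 51.2% of 23529 genes were called (29.5% higher, 21.7% lower). In 1 fit of all 14 arrays, the 4-week difference minus the 1-week difference was 1.56 for Rarb (SE 0.26, limma adjusted p = 0.000402), 1.37 for Aldh1a3 (adjusted p = 0.00178), 1.28 for Cyp26b1 (0.0177) and 1.13 for Aldh1a1 (0.000547). Their order depends on the processing: Rarb was 0.67 after normexp and 0.75 with its probes averaged, and Aldh1a1 was 2.15 after quantile normalization, all still called. Cyp26a1 (0.92, limma adjusted p = 0.0195), Rarg (0.88, 0.00578) and Rara (0.86, 0.0122) were also higher, and Aldh1a2 (-0.71, 0.00337) and Rdh10 (-0.70, 0.0217) lower, Rdh10 by its brightest probe only (0.80 higher with its probes averaged). Crabp1 did not pass (1.62, limma adjusted p = 0.0813). The share of 51.2% holds only for the scaling used here. The median of all probes in this contrast was 0.29 as scaled here and -0.046 after median scaling, and 5 of the 10 genes were called after median scaling and 5 after quantile normalization. Rara, Rarg and Cyp26a1 lost the call under both, Cyp26b1 under median scaling and Aldh1a2 under quantile normalization. After normexp Rara (0.44, limma adjusted p = 0.179) and Rarg (0.53, 0.106) lost it, and without 1-week Glis3KO2 replicates 1 and 4 Cyp26a1 did (0.68, 0.0659). Leaving out 1 array ended it for Cyp26a1 (without 4-week WT replicate 1, 0.82, limma adjusted p = 0.0559; without 4-week Glis3KO2 replicate 2, 0.74, 0.0600), Cyp26b1 (without 4-week WT replicate 2, 1.14, 0.0508; without 4-week Glis3KO2 replicate 1, 1.01, 0.0539) and Rdh10 (without 4-week WT replicate 2, -0.65, 0.0561; WT replicate 3, -0.69, 0.0502; Glis3KO2 replicate 1, -0.58, 0.0627), and Crabp1 passed without 1-week Glis3KO2 replicate 3 (1.93, 0.0398).

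**Figure D4:**
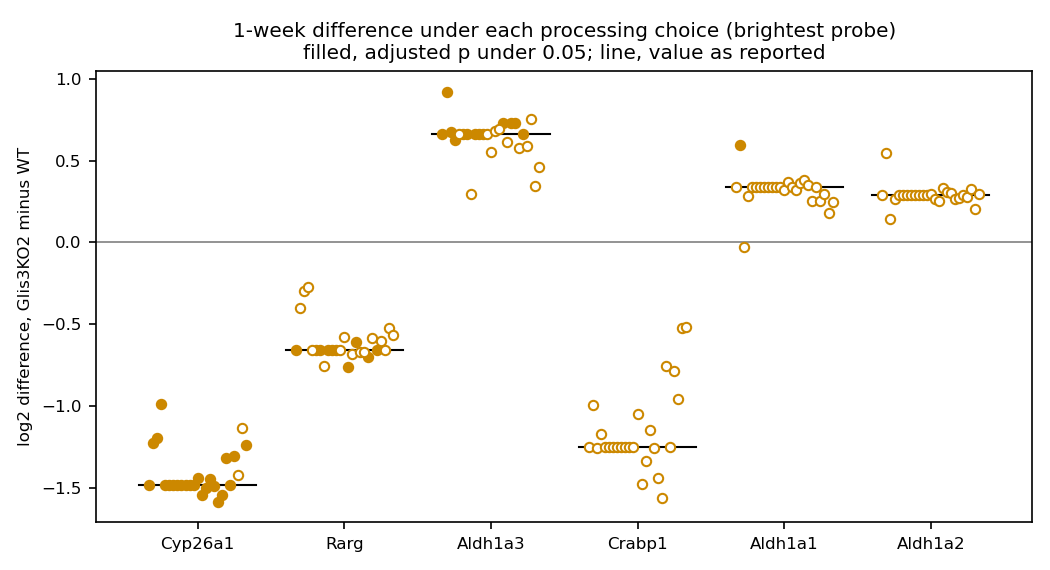
Log2 difference, Glis3KO2 minus WT at 1 week (vertical axis), of 6 genes at their brightest probes under each processing alternative and each omission of arrays, with a line at the value as reported and filled points for a limma adjusted p under 0.05. Cyp26a1 stays between -1.59 and -0.99 and open points appear only within single slides, while Rarg and Aldh1a3 keep their sign with many open points.

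Other genes of the pathway were counted in 4 lists by their brightest probes. Of the genes that oxidise or reduce retinol and retinal, 4 of 17 tested rose at 1 week and 0 fell: Adh4 (0.84, limma adjusted p = 0.0162), Adh1 (0.87, 0.0339), Dhrs4 (0.61, 0.0416) and Rdh11 (0.55, 0.0450), all dehydrogenases or reductases. Over all genes 3.91% rose and 6.16% fell at 1 week, the background for each list. After median scaling 9 rose, and after quantile normalization or normexp 6 did. At 4 weeks 9 of 17 rose and 6 fell, and by smallest p these were Adh1 (3.26), Rdh13 (2.32), Cyp1b1 (2.57) and Adh5 (1.75), all higher, with Adh4 (-1.45) and Bcmo1 (-2.73) lower. Bcmo1 encodes the enzyme that cleaves beta-carotene to retinal. Adh4 rose at 1 week and fell at 4 weeks, and this change of its genotype difference was -2.28 (limma adjusted p = 2.14e-05). The list's median difference was 0.54 at 1 week and 0.79 at 4 weeks, against -0.063 and 0.027 over all genes.

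Of the genes for retinoid transport, uptake and storage, 0 of 9 tested passed at 1 week by limma, with 6 at an unadjusted p under 0.05, and 4 rose after median scaling, 2 after normexp and 1 after quantile normalization. At 4 weeks 4 of 8 rose and 1 fell. Those that rose included the retinol receptor Stra6 (0.88). They also included Rarres1 (2.33) and Rarres2 (1.24), which were counted in this list but do not themselves transport, take up or store retinoids. Lrat, which stores retinol as esters, fell (-1.91, limma adjusted p = 0.0154), with 2 of 3 Glis3KO2 arrays well above background. After normexp the Lrat difference was -0.61. The median was 0.43 at 1 week and 0.83 at 4 weeks.

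Of partner receptors and co-regulators, 1 of 15 tested fell at 1 week and 0 rose: Rxrg (-0.97, limma adjusted p = 0.0496), an RXR gene. After median scaling 2 rose and 0 fell, and after quantile normalization 1 rose and 1 fell. At 4 weeks 10 of 14 rose and 3 fell. Those that rose included the RXR gene Rxra (1.85), the orphan receptor Nr2f2 (1.59), the co-regulator Nrip1 (1.46) and the co-activators Ncoa1 (1.31) and Ncoa2 (1.41). The median was 0.059 at 1 week and 1.04 at 4 weeks.

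Of genes known to respond to retinoic acid, 3 of 20 tested fell at 1 week and 0 rose. Among them Foxa1, a forkhead factor, was at least 2.96-fold lower, with no Glis3KO2 array above background. Its measured difference was -1.92 (log2, limma adjusted p = 0.0267). After normexp the Foxa1 difference was -0.23 (log2), below that bound in size. Kit, the receptor that marks differentiating spermatogonia, fell (-1.15, limma adjusted p = 0.0347), while Stra8, the meiotic entry gene, did not pass (-0.73, 0.244). After normexp 1 fell, and after median scaling or quantile normalization 4 fell. At 4 weeks 10 of 17 rose and 4 fell. Among them Bhlhe40 (2.68), Zfp36l1 (2.16), Tgm2 (1.98) and Meis1 (1.75) rose, and Rec8, a meiotic cohesin gene, fell (-1.35). Kit rose at 4 weeks (0.60, limma adjusted p = 0.0304) and Stra8 did not pass (0.61, 0.0891). The median was 0.048 at 1 week and 0.88 at 4 weeks.

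Without 1-week Glis3KO2 replicates 1 and 4, no gene of the 4 lists passed at 1 week by limma, with 1 of 10 (transport), 8 of 19 (oxidation), 3 of 15 (partners) and 4 of 22 (responsive genes) at an unadjusted p under 0.05. That setting has fewer arrays, and the 1-week genes named above as called kept their sign in it. Adh4 was 0.87, Adh1 0.70, Dhrs4 0.59 and Rdh11 0.46, and Rxrg was -0.86, Foxa1 -1.80 and Kit -1.06. The lists share genes with each other and with the cell markers (among them Stra6, Dhrs3 and Crabp2, and Kit, Stra8, Sycp3 and Sall4), so their counts are not independent. At 4 weeks the shares called, like those of the members, stood beside 69.3% of all genes (35.3% higher, 34% lower).

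**Figure D5:**
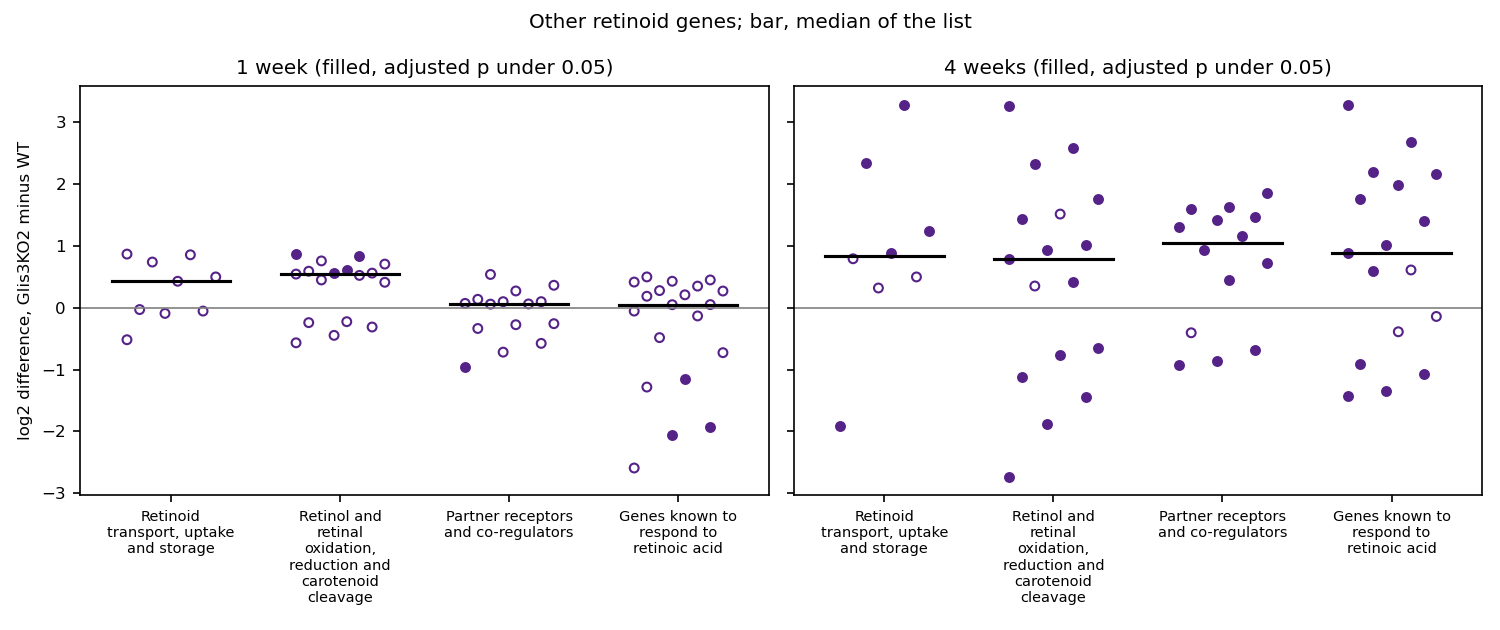
Log2 difference, Glis3KO2 minus WT (vertical axis), of each tested gene in 4 lists of other retinoid genes at 1 week and 4 weeks, by brightest probe, with a bar at the median of the list and filled points for a limma adjusted p under 0.05. At 1 week 8 gene entries are filled, and at 4 weeks the medians lie between 0.79 and 1.04.

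The genes whose levels ran most like those of the members over the 14 arrays were taken as the 3 with the highest Pearson correlation among 14821 genes, for the 9 members called in a genotype comparison. Cyp26a1 ran most like Smcr8 (0.946), Tdh (0.943) and Cd274 (0.932). Rarg ran most like Piwil4 (0.957), Fgf22 (0.955) and Lmo1 (0.954), Piwil4 being a piRNA pathway gene of young male germ cells. For Rarb they were Kif3c (0.991), Pola1 (0.987) and Cacnb3 (0.987), for Rara Frmd4a (0.994), Xpo1 (0.993) and Ap4e1 (0.992), and for Cyp26b1 Hipk2 (0.988), Med13 (0.987) and Gbp7 (0.987). The synthesis genes ran most like Ncoa7 (0.995), Zadh2 (0.993) and Rnd3 (0.992) for Aldh1a1, Efhd1 (0.995), Bbs9 (0.994) and Slc35f6 (0.994) for Aldh1a2, Gramd1a (0.989), Fbxo31 (0.988) and Zfp975 (0.986) for Aldh1a3 and Rfesd (0.975), Itfg1 (0.971) and Gatad1 (0.963) for Rdh10. These correlations are descriptions, since the arrays share ages, genotypes and slides.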

How the data were processed

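Total RNA of 14 testes samples was hybridised as Cy3-labelled cRNA in single colour, and, per the submitters' processing notes, Agilent Feature Extraction 9.5 turned the scans into spot values. Each deposited file holds, per the file headers, a processed intensity per spot (background subtracted and detrended within the array, not normalised between arrays), spot means and local backgrounds as intensity, and flags of 0 or 1, with positions in the mm7 build. The authors' series table held the same processed intensity in every cell (100% equal, relative tolerance 1e-06). The headers give 45018 spots an array, 43379 of them non-control.

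Processed intensities, as deposited by the authors, were put on the log2 scale, spots flagged as non-uniform were left out, repeat spots were averaged and the 75th percentile of each array was subtracted. A probe was tested where at least 3 arrays of 1 compared group read it well above background, using lmFit and eBayes of limma 3.58.1 (R 4.3.3), each age in its own fit, with Benjamini-Hochberg adjustment over all probes, and called at an adjusted p under 0.05. A background level used for a lower bound is the lowest signal among probes well above background on each array, or the dim probe's own signal if higher. Such a bound is not strict, since it rests on that lowest signal. After normexp the upstream Aldh1a3 and the Foxa1 differences were smaller than their bounds. A p-value given with a bound belongs to the measured log2 difference. The test was checked on simulated data. Genes most alike had to be above background on at least 12 arrays. Samples were grouped by their labels, same-numbered replicates were not paired (correlations of their deviations from -0.19 to 0.13 at 1 week and -0.31 to 0.15 at 4 weeks), and no sample was left out. The number of arrays limits the precision.

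The text names the 10 members with every probe, Glis3, and of other pathway genes those passing a test, up to 6 a list and comparison by smallest p, plus Stra8 at both ages and Kit at 4 weeks, chosen after their values were seen. Some genes of the lists that meet this rule are counted but not reported here by name. The members, lists, markers and naming rule were chosen with earlier results of these data known. Cyp26c1 had no probe under that name. Alternatives covered scaling, background correction, filters, probe averaging, blocks and omitted arrays.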

Additional observations from a re-analysis of the deposited data

Results flagged for a closer look

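In 2 of 28 groups of 4 samples tested, 1 array stood apart from the rest of its group, and chance gives about 1 in 20. Cyp26b1 in 1-week Glis3KO2 replicate 3 was 3.96, against 4.87 to 5.004 in the other 3. The second Rarb probe in 1-week WT replicate 2 was -7.47, against -6.65 to -6.59 in the other 3.

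The genotype difference changed between the ages, by limma over all 14 arrays, for 12 of the 14 probes of the members, where 51.2% of 23529 genes were called by their brightest probes. The 4-week difference minus the 1-week difference was -0.70 at the upstream and 2.30 at the downstream Rdh10 probe, 1.13 for Aldh1a1, -0.71 for Aldh1a2, 1.37 at the downstream and 2.46 at the upstream Aldh1a3 probe, 0.92 for Cyp26a1, 1.28 for Cyp26b1, 0.86 for Rara, 1.56 for Rarb, and 0.88 and 1.04 at the Rarg probes. At the second Rarg probe the call was lost after median scaling (0.70), quantile normalization (0.59) and normexp (0.56), without 1-week Glis3KO2 replicates 1 and 4 (0.70), and without 1-week WT replicate 1 (0.92) or 4 (0.97), 4-week WT replicate 1 (1.05), 2 (1.03) or 3 (1.05), or 4-week Glis3KO2 replicate 1 (1.04) or 2 (0.95). At the upstream Aldh1a3 probe it was lost after normexp (0.53). Age and slide cannot be told apart in these values.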

How the results depend on the processing

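The 4-week calls of Aldh1a1, Aldh1a3 (downstream probe), Cyp26b1 and Rara held under all 20 alternatives with a test and that of Rarb under all 19. Within slide 5, where 1 array of each genotype allows no test, these 5 differences kept their sign. The 1-week call of Cyp26a1 held in 22 of 24 alternatives and was lost only within single slides. By limma the number of members called at 1 week, 3 as reported, was 1 with no filter on dim probes, 1 with probes of a gene averaged, 1 with the replicate number as a block, 1 with slide as a block and 1 without Glis3KO2 replicates 1 and 4 (an alternative chosen after seeing the data). It was 0 within slide 1 (3 at an unadjusted p under 0.05) and 0 within slide 2 (1 at an unadjusted p under 0.05), with fewer arrays and no probe of any gene called. Leaving out 1 array gave 1 to 3, with 1 (Cyp26a1) without WT replicates 1 or 3 or Glis3KO2 replicates 1 or 4. Between the ages in Glis3KO2, 5 members were called with the replicate block in place of 3. Beside these and the 1-week count (1 in place of 3), the block moved no count of members called by over 1.5 times. The labels give same-numbered samples no shared source, and their deviations from the group means correlated by at most 0.15. For the change of the genotype difference, 5 were called after median scaling and 5 after quantile normalization, where the median of all probes was -0.046 and 0.12 in place of 0.29. The percentages of all genes called belong to the reported fits and not to the alternatives. The cause was not tested where none is given.

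Signs that turned were mostly those of differences near 0. For 1-week differences, median scaling gave 0.076 for Rarb, 0.22 at the downstream Rdh10 probe and 0.18 at the upstream Aldh1a3 probe. Quantile normalization gave -0.13 for Cyp26b1, 0.15 and 0.42 at the Rarb probes, 0.061 at the downstream Rdh10 probe, 0.34 at the upstream Aldh1a3 probe and -0.027 for Aldh1a1. Normexp gave 0.17 at the second Rarb probe and 0.18 at the upstream Aldh1a3 probe, which was 0.018 within slide 1. Without Glis3KO2 replicates 1 and 4, Cyp26b1 was -0.080 and the downstream Rdh10 probe 0.063. Leaving out 1 array gave -0.11 to 0.037 at the downstream Rdh10 probe and -0.17 to 0.017 at the upstream Aldh1a3 probe.

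At 4 weeks, averaging its probes gave 0.85 for Rdh10 (limma adjusted p = 0.00324), within slide 5 Rarg was -0.10 and Crabp1 -0.43, and leaving out 1 array gave -0.051 to 0.69 for Crabp1. For the ages in WT, averaging gave -0.71 for Rdh10, and the second Rarb probe was 0.028 after median scaling and 0.48 after quantile normalization. In Glis3KO2, Aldh1a1 was -0.15 after median scaling, Aldh1a3 was -0.087 with probes averaged, and leaving out 1 array gave -0.10 to 0.041 for Rarg, -0.29 to 0.034 at the downstream Rdh10 probe and -0.019 to 0.14 for Aldh1a1. For the change of the genotype difference, averaging gave 0.80 for Rdh10, and leaving out 1 array gave -0.23 to 0.16 at the second Rarb probe. Signal over background limits the second Rarb probe, the upstream Aldh1a3 probe and Rarb in 4-week WT, where only bounds or few arrays are above background.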

Other observations

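The 10 spots of the brightest Rarb probe give a measure of error within an array. Their SD ran from 0.24 to 0.50 (log2) on the 3 4-week WT arrays, where Rarb lies near background, and from 0.056 to 0.36 on the other 11 arrays. The array values of 4-week WT stood at -6.53 ± 0.059 (SD, n = 3). Each is a mean of 10 spots, so a smaller spread than that of single spots follows from the averaging.

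Among the 4-week arrays, the summed epididymis and efferent duct markers were highest in WT replicate 1 (1.88 on the log2 scale), against -1.16 to 0.30 in the other 5.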
